A study of Mus musculus with 3 samples.

Results

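The neurotrophins are secreted growth factors of the nervous system, and this account covers 8 genes of the system among the 39377 genes in the table: the ligand genes Bdnf, Ntf3 and Ntf5, the Trk receptor genes Ntrk2 and Ntrk3, the pan-neurotrophin receptor gene Ngfr, and the sortilin family genes Sort1 and Sorcs2. The members were taken by gene symbol and not by a threshold on measured values, but they were chosen with earlier results of these data known. RNA-seq was performed on whole hippocampus, a tissue of mixed cell types, from wild-type (WT) C57BL/6 mice at postnatal day 14. The samples form 1 group of 3 libraries, named libraries 1, 2 and 3, so that no treated, mutant or older animals stand beside them and the comparisons lie between genes measured in the same library. The labels do not say whether each library is a separate animal, so the SDs and p-values describe the spread between these libraries, which may be technical. Values are FPKM as the authors deposited them: sequenced fragments divided by transcript length in kilobases and by the library's mapped fragments in units of 1000000.

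BDNF and NT-4, the product of Ntf5, signal through the receptor tyrosine kinase TrkB, encoded by Ntrk2, and NT-3, the product of Ntf3, signals through TrkC, encoded by Ntrk3. The ligands are made as precursors, and the uncleaved precursors bind p75NTR, encoded by Ngfr, together with a co-receptor of the sortilin family such as sortilin or SorCS2. In the hippocampus BDNF is known for its role in synaptic plasticity and in the maturation of neurons, and truncated TrkB, which lacks the kinase domain, is known from astrocytes. A value for the whole gene adds up the transcripts of full-length and truncated receptors.

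Each member has 1 value per library for all its transcripts, although several are transcribed from more than 1 start. RefSeq sequence upstream of annotated starts (GRCm38.p6) was at hand for 4 of the 8 members, Bdnf, Ntf3, Ngfr and Ntrk2, with 11 starts in all, of which 7 belong to Bdnf. Of the 250 bases before each start, the windows below are shown because they include both that hold a motif match and, without one, the first Bdnf start and the starts of Ntrk2, the highest member, and Ngfr, the lowest receptor gene, with bases inside annotated exons, or inside the annotated gene where a window crosses its end, left out. Capitals mark a motif match.
Bdnf, chr2:109674450-109674699, plus strand: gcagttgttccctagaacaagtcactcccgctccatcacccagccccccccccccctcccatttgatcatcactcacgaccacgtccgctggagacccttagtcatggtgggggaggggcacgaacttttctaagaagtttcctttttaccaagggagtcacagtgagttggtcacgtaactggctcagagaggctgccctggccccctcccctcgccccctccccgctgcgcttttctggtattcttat
Bdnf, chr2:109692186-109692435, plus strand: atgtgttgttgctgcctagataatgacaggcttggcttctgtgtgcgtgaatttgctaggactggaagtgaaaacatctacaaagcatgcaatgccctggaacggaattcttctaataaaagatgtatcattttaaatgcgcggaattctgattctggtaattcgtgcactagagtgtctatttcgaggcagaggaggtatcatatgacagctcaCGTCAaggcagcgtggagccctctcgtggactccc
Ntf3, chr6:126166911-126166994, minus strand: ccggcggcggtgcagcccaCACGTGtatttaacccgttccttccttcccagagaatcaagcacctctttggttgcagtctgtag
Ntrk2, chr13:58806319-58806471, plus strand: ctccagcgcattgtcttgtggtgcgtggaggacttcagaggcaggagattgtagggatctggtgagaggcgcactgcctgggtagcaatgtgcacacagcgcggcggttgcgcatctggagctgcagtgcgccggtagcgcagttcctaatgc
Ngfr, chr11:95587736-95587948, minus strand: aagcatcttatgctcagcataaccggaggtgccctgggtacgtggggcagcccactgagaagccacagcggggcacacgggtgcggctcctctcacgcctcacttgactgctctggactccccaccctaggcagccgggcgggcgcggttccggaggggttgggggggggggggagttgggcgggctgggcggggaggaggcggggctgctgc

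The motifs searched were TGACGTCA (the full cAMP response element), its core TGACG or CGTCA, which the full element contains, the E-box CACGTG, and the TATA box TATAAA or TTTATA, each on both strands. The core was found in 1 of the 11 windows, before the Bdnf start at 109692436, at position -35 counted from that start. It occurs in 17.8% of the 32851 windows of the same length before all annotated starts. The E-box was found in 1 of the 11, at position -231 before the Ntf3 start at 126166744, against 6.02% of all windows. The full element and the TATA box matched 0 of the 11, against 1.55% and 12.4% of all windows. A match is a description of letters and not a site of binding. The GC content of the Bdnf windows ran between 39.2% and 59.6%, that of the Ntrk2 window was 62.8% and that of the full Ngfr window 70.4%, against a median of 52.4% over all windows. The deposited values do not tell which of the Bdnf starts was used.

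The highest members by mean were receptor genes, although the receptor genes Sorcs2 and Ngfr lay below Bdnf. Ntrk2 was the highest member at 62.7 ± 2.65 FPKM (SD, n = 3), followed by Sort1 at 34.7 ± 1.48, Ntrk3 at 16.1 ± 1.44, Bdnf at 13.2 ± 2.26, Sorcs2 at 8.62 ± 0.568 and Ntf3 at 6.12 ± 2.54 FPKM. Ngfr averaged 0.52 FPKM and Ntf5 less, each resting on few fragments. Ranked by mean, with 19046 genes detected in any library, Ntrk2 stood at 1636, Ntf3 at 8519 and Ntf5 at 16581. The members thus spread from the 91.4th to the 12.8th percentile of the detected genes. All but Ntf5 were above 0 in every library, and 6 of the 8 reached the mean of 1 FPKM required for testing.

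**Figure D1:**
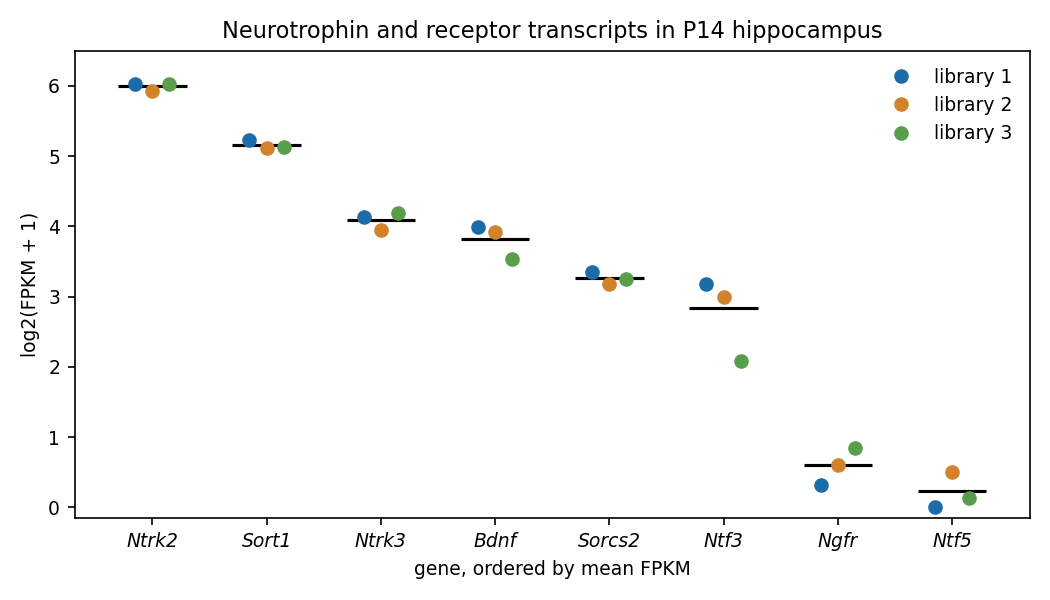
Levels of the 8 members on the log2(FPKM + 1) scale (vertical axis), ordered by mean FPKM, with 1 point per library and a line at log2 of the mean plus 1. Ntrk2 lies highest at a mean of 62.7 FPKM, the points of Ntf3 are spread by library, and Ngfr and Ntf5 lie near the bottom.

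Ntrk2, on the plus strand of chromosome 13 between 58806472 and 59133970 (GRCm38.p6), had 63.9, 59.6 and 64.5 FPKM in libraries 1, 2 and 3. On this scale the 3 values lay close together, with a coefficient of variation of 4.22%, but rescaled to TPM (each library summing to 1000000) they were 86.0, 72.7 and 101, with 16.4%. Ntrk3, on the minus strand of chromosome 7 between 78179986 and 78581034, had 16.5, 14.5 and 17.3 FPKM, and its coefficient of variation was 8.93%, against 21.2% in TPM. The highest Ntrk3 value was below the lowest Ntrk2 value by a wide margin, and Ntrk3 was 0.256 ± 0.0126 times Ntrk2 within libraries (SD, n = 3). Ntrk2 made up 79.6% ± 0.801 of the summed FPKM of both genes. Both genes have many annotated forms: GENCODE lists 10 transcripts for Ntrk2, its 7 coding ones between 2284 and 8744 bases long, and 20 transcripts for Ntrk3, its 6 coding ones between 423 and 19703 bases. Which length the authors divided by is not given in the sources used here, and the levels of these genes depend on it.

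Sort1 encodes sortilin, which sorts proteins between the Golgi, endosomes and the cell surface and binds neurotrophin precursors. On the plus strand of chromosome 3 between 108283974 and 108361519, it had 36.4, 33.7 and 34.0 FPKM. Sorcs2, on the minus strand of chromosome 5 between 36017180 and 36398197, had 9.22, 8.09 and 8.56 FPKM. On the deposited scale libraries differed little in either gene, with coefficients of variation of 4.26% and 6.58%, against 13.0% for Sort1 and 15.4% for Sorcs2 in TPM. Within libraries, where the scaling cancels, Sorcs2 was 0.248 ± 0.00722 times Sort1. Of the other members of that receptor family, Sorl1, the gene of the sorting receptor SORLA, was at 8.35, 10.9 and 9.64 FPKM. Sorcs3 was at 4.62, 3.63 and 3.52 FPKM and Sorcs1 at 0.55, 1.11 and 0.60 FPKM. Sort1 carried 60.2% ± 1.43 of the FPKM summed over the 5 genes.

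Among the ligands, Bdnf, on the plus strand of chromosome 2 between 109674700 and 109727043, had 14.9, 14.1 and 10.6 FPKM in libraries 1, 2 and 3. Ntf3, on the minus strand of chromosome 6 between 126101412 and 126166772, had 8.1, 7.0 and 3.25 FPKM. In both ligand genes library 3 was the lowest and libraries 1 and 2 were close to each other. Bdnf held 64.7%, 65.5% and 76.0% of the summed FPKM of the 3 ligand genes in libraries 1, 2 and 3, a mean of 68.8% ± 6.31. Ntf3 was 0.545, 0.497 and 0.306 times Bdnf. Ntf5, on the plus strand of chromosome 7 between 45413695 and 45417179, was listed at 0, 0.42 and 0.10 FPKM.

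Low FPKM values move in steps of whole fragments, which gave estimated depths of about 3700000, 4110000 and 5960000 fragments in libraries 1, 2 and 3. For the longest coding transcript of each gene, the Bdnf values then correspond to about 219, 234 and 254 fragments and those of Ntf3 to about 36, 36 and 24. Exact 95% Poisson intervals, which cover counting error only, were 12.9 to 16.9, 12.3 to 16.0 and 9.35 to 12.0 FPKM for Bdnf. For Ntf3 they were 5.64 to 11.2, 4.88 to 9.64 and 2.09 to 4.86 FPKM. In both genes the interval of library 3 lay below those of libraries 1 and 2, for Ntf3 narrowly. The coefficient of variation of Ntf3, 41.6%, was exceeded by 5.5% of the 200 genes nearest to it in mean level, whose median was 17.3%. For Bdnf it was 17.1%, exceeded by 31.5% of its 200 nearest genes. In TPM, Ntf3 was still lowest in library 3, at 10.9, 8.54 and 5.10, while Bdnf was at 20.0, 17.2 and 16.6. Scaled by median-of-ratios factors, Bdnf was at 14.7, 14.1 and 10.7. The Bdnf gap between libraries 2 and 3 thus depends on the scaling, kept with these factors and small in TPM. Prox1, the granule neuron transcription factor, was at 11.5, 9.63 and 8.56 FPKM, whereas the 6 excitatory neuron markers together summed to 1380, 1452 and 1549 FPKM, and the part of either in the ligand values was not tested. In whole tissue, fewer cells of a type and less RNA per cell cannot be told apart.

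**Figure D2:**
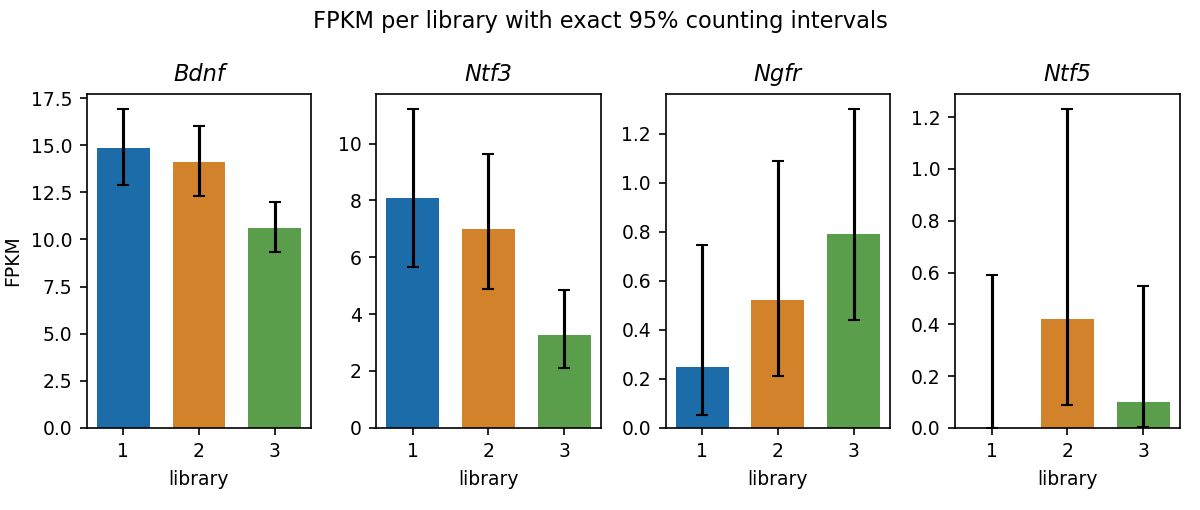
FPKM of Bdnf, Ntf3, Ngfr and Ntf5 in libraries 1, 2 and 3 (bars; each panel has its own vertical axis from 0), with exact 95% Poisson intervals of the estimated fragments as error bars. Bdnf and Ntf3 are lowest in library 3, at 10.6 and 3.25 FPKM, while the intervals of Ngfr and of Ntf5 overlap between libraries.

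Ngfr was barely detected. On the minus strand of chromosome 11 between 95568818 and 95587698, it had 0.25, 0.52 and 0.79 FPKM, which for its single annotated transcript of 3446 bases correspond to about 3, 7 and 15 fragments. The Poisson intervals of 0.0527 to 0.747, 0.213 to 1.09 and 0.441 to 1.30 FPKM overlapped, so a difference between libraries was not resolved at this depth. The 4 choroid plexus markers, none of them at 0, summed to 397, 1082 and 1309 FPKM in the same libraries, most of it Ttr, and the 5 meningeal fibroblast markers, none at 0, to 103, 125 and 107 FPKM, most of it Dcn and Igf2. The meningeal markers went different ways. Col1a1 was at 3.08, 5.12 and 6.18 FPKM and Col1a2 at 5.27, 8.13 and 8.52. Dcn and Lum were lowest in library 3, and Igf2 was highest in library 2. The part of choroid plexus and meninges in the Ngfr value was not tested. Ngfr is known as a receptor of basal forebrain cholinergic neurons, whose cell bodies lie outside the hippocampus. Of the 5 markers of those neurons 0 reached a mean of 1 FPKM, Chat and Gbx1 were listed at 0 in every library, and the summed level was between 0.28 and 0.59 FPKM. The part of those neurons in the Ngfr value was not tested either. For Ntf5 the values correspond to about 0, 3 and 1 fragments, where 3 fragments are worth 0.48, 0.42 and 0.294 FPKM in libraries 1, 2 and 3, so Ntf5 was at or under that floor in each library.

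To set the order of the members against the spread between libraries, all genes averaging 1 FPKM or more were compared with Ntrk2 within libraries on the log2(FPKM + 1) scale, which understates differences of low genes. The test asked for more than a 2-fold difference (limma, null of at most 1 log2 unit, two-sided, Benjamini-Hochberg adjusted over all 13336 genes). Of the 5 other members tested, 4 were called lower than Ntrk2 and 0 higher, whereas 73.2% of all genes were lower and 5.05% higher, so the share among the members was close to that of all genes. For Ntrk3 the difference from Ntrk2 was -1.90 log2 units (SE 0.0911, adjusted p = 0.000164). It was -2.18 for Bdnf (SE 0.134, adjusted p = 0.000267), -2.73 for Sorcs2 (SE 0.0902, adjusted p = 1.38e-05) and -3.23 for Ntf3 (SE 0.243, adjusted p = 0.000229). Each was lower in 3 of 3 libraries. Sort1 was not called, with a difference of -0.83 (95% interval -1.07 to -0.60, adjusted p = 1), so that a gap of more than 2-fold was not shown. Ngfr and Ntf5, too low for that test, differed from Ntrk2 by -5.40 and -5.78 log2 units when all 19045 genes above 0 were tested (limma adjusted p = 9.40e-07 and 1.04e-06), where 81.3% of genes were lower. With 1 added to each value, any gene near 0 must lie far below Ntrk2 and vary little on this scale. These p-values therefore add nothing to the low values themselves.

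Each of the 6 members tested was then taken in turn as the base of the same fit, and a pair was called only where it passed with each of its genes as the base, a rule set after the fits were seen because a base that varies between libraries, such as Ntf3, changes the p-values. The larger of both p-values is given. With Bdnf or Ntf3 as the base, every other member had the same SE, 0.237 or 0.387 log2 units. That SE was pooled over all genes as if independent, although their differences share the spread of the base. The p-values and intervals with these bases may thus be too firm for 3 libraries, and the shares of all genes rest on them too. Of 15 pairs 6 were called. With Sort1 as the base, 57.7% of all genes were called lower and 8.97% higher. With Ntrk3 these shares were 34.3% and 18%, with Bdnf 26.4% and 19.4%, with Sorcs2 17.3% and 29.3%, and with Ntf3 0.42% and 28.9%. Besides the 4 with Ntrk2, the called pairs were Sorcs2 and Ntf3 against Sort1, with differences of -1.89 (limma adjusted p = 0.000399) and -2.40 (limma adjusted p = 0.00134). The difference of Bdnf from Sort1 was -1.34, called with Sort1 as the base (limma adjusted p = 0.0251) and not with Bdnf as the base (adjusted p = 0.147). The difference of Ntf3 from Bdnf was -1.06 (95% interval -1.82 to -0.30), which did not exceed 2-fold by the test (limma adjusted p = 0.762), and that of Ntf3 from its receptor gene Ntrk3 was -1.33 (95% interval -2.09 to -0.57, limma adjusted p = 0.409).

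**Figure D3:**
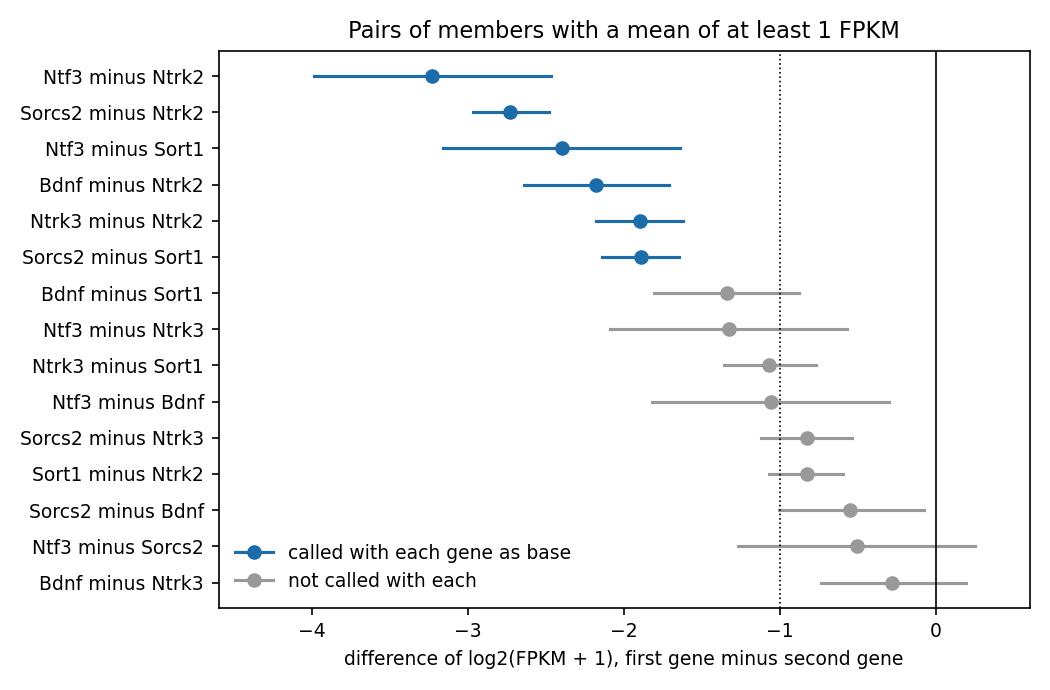
Differences of log2(FPKM + 1), first gene minus second, for the 15 pairs of members tested (horizontal axis), with points for the mean over libraries, bars for the wider of both 95% intervals, a dotted line at -1 and a solid line at 0. The 6 pairs called as more than 2-fold apart lie between -3.23 and -1.89.

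Between neighbours in the order of levels, the question was only whether they differed beyond the spread between libraries, so the null was no difference. Sort1 was below Ntrk2 (difference -0.83, limma adjusted p = 0.00034), where 85% of all genes were below Ntrk2 and 9.94% above it. Ntrk3 was below Sort1 (difference -1.07, limma adjusted p = 0.000164), as were 75.1% of all genes, while 17.6% were above Sort1. Bdnf and Ntrk3 were not separated (difference -0.28, 95% interval -0.74 to 0.19, limma adjusted p = 0.272), with 54.8% of all genes below Ntrk3 and 31.4% above it. Sorcs2 was below Bdnf (difference -0.55, limma adjusted p = 0.0266), as were 46.5% of all genes, while 34.1% were above Bdnf. That p had Bdnf as the base and rested on the pooled SE, so it may be too small for 3 libraries. Ntf3 and Sorcs2 were not separated (difference -0.51, 95% interval -1.27 to 0.25, limma adjusted p = 0.239), with 37.8% of all genes below Sorcs2 and 47.8% above it. With Ntf3 as the base 18.8% of all genes were below and 48.2% above. A p above the threshold does not show that levels are equal. Differences between genes, under or over 2-fold, can also come from transcript length, GC content or mappability, whose part was not tested. Coding transcripts ran between 423 and 19703 bases for Ntrk3 and between 665 and 5707 for Sorcs2, and the length used is not known.

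As ratios of receptor to ligand per length, Ntrk2 was 4.30, 4.23 and 6.07 times Bdnf in libraries 1, 2 and 3, and Ntrk3 was 2.03, 2.07 and 5.32 times Ntf3. Both ratios were highest in library 3, the library with the lowest Bdnf and Ntf3 values, and Ntrk2 and Ntrk3 were also highest there. The transcript ratios say nothing of protein amounts or of which cells hold ligand and receptor.

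Genes that process, carry and answer neurotrophins were described against the same base, Ntrk2. In the list of precursor processing and secretion, 12 of 16 genes could be tested, of which 8 were lower than Ntrk2 and 2 higher, and the list median difference was -2.08, against -2.49 over all genes tested. The higher ones were Cpe, the gene of carboxypeptidase E, which trims peptide precursors, at 2221 ± 118 FPKM, and Serpine2, which encodes the protease inhibitor nexin-1, at 192 ± 2.17 FPKM. Serpini1, the gene of neuroserpin, was at 87.2, 80.7 and 65.7 FPKM and was not called. Plasminogen (Plg), Mmp3 and Mmp7, proteases described to cleave precursors outside cells, were listed at 0 in every library.

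In the list of Trk adaptors and proximal signalling, 13 of 18 genes were lower than Ntrk2 and 0 higher, with a median difference of -2.23. Grb2, the adaptor that links receptors to Ras, was at 64.9, 83.0 and 63.1 FPKM, Crk at 52.9 ± 5.74 FPKM, and Kidins220, a membrane scaffold of Trk receptors, at 34.0 ± 3.24 FPKM, and none of the 3 was called. Of 14 genes for Trk phosphatases, trafficking and coreceptors, 6 were lower and 1 higher, with a median difference of -1.10. The higher one was Rab7, whose GTPase acts in late endosomal transport, at 174 ± 1.61 FPKM. Ptprs, a receptor tyrosine phosphatase gene, was at 85.95 ± 3.42 FPKM, and Nedd4, a ubiquitin ligase gene, at 76.2 ± 1.12 FPKM, both not called.

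Although Ngfr itself was barely detected, genes for proteins that act with p75NTR were detected throughout, and many of them serve other receptors too. All 15 genes of that list found in the table were tested, 8 were lower than Ntrk2 and 3 higher, and the median difference was -1.77. Higher were Bex3, a small adaptor of p75NTR, at 359 ± 13.1 FPKM, Arhgdia at 190 ± 17.2 FPKM, and Maged1, which encodes the p75NTR-interacting protein NRAGE, at 153 ± 14.3 FPKM. Maged1 (limma adjusted p = 0.0213) was no longer called without replicate 1 or replicate 3 (adjusted p = 0.0805 and 0.0807). Bex3 has close paralogs that can share its reads.

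Among regulators described for the transcription of Bdnf, 12 of 14 could be tested, 8 were lower than Ntrk2 and 0 higher, with a median difference of -2.06. Usf1 and Usf2, which encode E-box binding factors, were at 65.8 ± 2.07 FPKM and 61.9 ± 6.08 FPKM, and Mef2d, an activity-regulated factor, at 29.97 ± 2.01 FPKM, none of them called. Of 12 genes described to respond to BDNF, 11 were tested, 8 were lower and 2 higher, with a median difference of -1.35. The higher ones were Camk2a, a synaptic kinase gene, at 820 ± 91.1 FPKM and Npy, a neuropeptide gene, at 208 ± 24.6 FPKM. Vgf, a neurotrophin-inducible secretory gene, was at 81.2, 69.8 and 91.2 FPKM and was not called. The 2 other sortilin family genes tested were both lower, with a median difference of -3.14. For the lists as a whole, 73.2% of all genes tested were lower than Ntrk2 and 5.05% higher, and nothing was tested of whether a list stands apart.

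**Figure D4:**
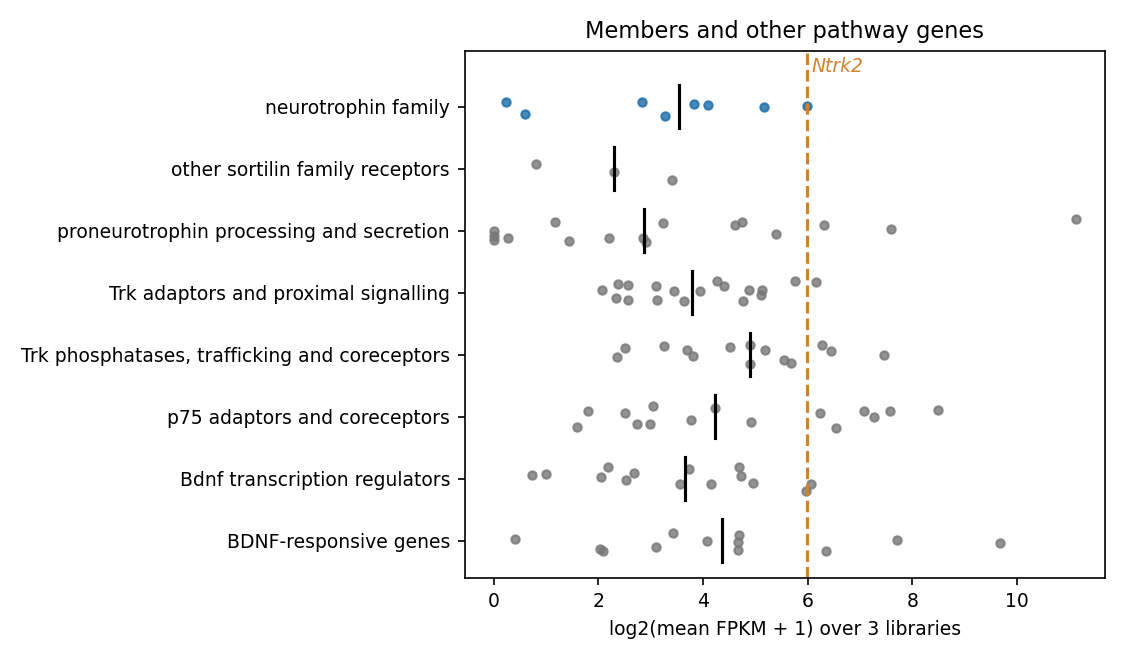
Mean levels over 3 libraries as log2(mean FPKM + 1) (horizontal axis) for the 8 members (top row) and for 7 lists of pathway genes, with 1 point per gene, a bar at each list median and a dashed line at Ntrk2. Cpe, Camk2a and Bex3 lie right of Ntrk2, while most points of every row lie left of it.

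By level over the 3 libraries, the genes most like Ntrk2 were Phyhipl, Emc3 and Lcmt1, with root mean square differences of 0.0226, 0.0272 and 0.028 log2 units. Those most like Bdnf were Cpox, Sap18 and Parn, at 0.044, 0.0453 and 0.0471 log2 units. With 3 libraries this likeness mainly reflects the mean level.

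Annotation places other genes inside the spans of some members. Antisense genes whose exons overlap those of a member are Gm45346 at Bdnf and Gm12523 at Sort1, neither of which was analysed here, and without stated strand information their reads could count toward those members. No annotated gene overlaps the spans of Ntf3, Ntf5 or Ngfr. The tissue check gave all 6 excitatory neuron markers and all 6 astrocyte markers above a mean of 1 FPKM, and the astrocyte list summed to 1264, 1487 and 1443 FPKM. All interneuron, oligodendrocyte precursor, vascular, meningeal and choroid plexus markers also reached that mean, as did 2 of 4 peripheral glia markers. Of the 19046 genes detected, 13336 reached it, so the check does not single out a tissue.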

How the data were processed

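Total RNA of whole hippocampus was read as 150-base pairs on an Illumina NovaSeq instrument, according to the labels' protocols. The deposited table holds FPKM, per the file headers, 1 column for each of 3 libraries, matched to samples by number. Bowtie2 and the build GRCm38 (mm10) are named in the submitters' processing notes; the counting tool, annotation, gene lengths and strand setting: not given in the sources used here. No column of per-sample values was left unused. The members and lists were chosen with earlier results of these data known.

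Here FPKM were used as deposited, and Ngfrap1 was looked up under its symbol Bex3. Differences of log2(FPKM + 1) to a base gene were formed in each library for genes with a mean of at least 1 FPKM and tested with limma 3.58.1 (treat, null of 1 log2 unit) in R 4.3.3, calls at adjusted p under 0.05. The spread of the base gene enters every difference of its fit. With Bdnf or Ntf3 as the base it led to 1 SE pooled over genes. Code was tested on simulated data. Depth was estimated from genes with 1 transcript of at least 800 bases: values of at most 4 fragments came within 0.15 of whole numbers in 92.9%, 92.3% and 90.5% of cases with 275, 225 and 250 bases taken off the length, settings fitted to these same values. Whether molecular identifiers were used is not stated, so PCR copies may count as fragments, and intervals and floors cover counting error only. Named were all members, the 3 highest genes and those called higher than Ntrk2 in each pathway list, all sortilin genes, the 3 genes nearest to Ntrk2 and to Bdnf, and the highest and lowest gene of each marker list, of which some are not reported here; Prox1, Gbx1, Plg, Mmp3, Mmp7 and the overlapping antisense genes were chosen after values were seen. Promoter sequence is RefSeq's (GRCm38.p6) and transcripts are GENCODE M21, on the same assembly; the first 25 transcribed bases were found in a GENCODE transcript for 10 of 11 starts. Python 3.11.15 with pandas 2.3.3 and scipy 1.17.1 was used. Alternatives were other pseudocounts, filters, nulls and scalings, leaving out each library and, chosen after seeing the data, a variance trend; so was the rule that a pair must pass with each of its genes as the base.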

Additional observations from a re-analysis of the deposited data

How the results depend on the processing

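No paired analysis was possible because the samples form 1 group. Other pseudocounts and a variance trend left the direction of each difference between members, and its call at the 2-fold null by the rule used for it, in place; the calls with a null of no difference and those with a single base other than Ntrk2 were not recomputed under them. Median-of-ratios scaling was applied to the members' levels alone, whose means moved by less than 1 SD. Without a filter on low values 15483 of 19045 genes (81.3%) were lower than Ntrk2. More pairs of members, 18, were then called, since Ngfr and Ntf5 enter. The added calls all set 1 of these near-zero genes against a higher member, an outcome fixed by their low level. Ntf5 and Ngfr were not separated from each other (difference -0.374). With a mean of at least 5 FPKM fewer genes are tested, 9201 in all, of which 5658 were lower than Ntrk2. Among these were 1 other sortilin gene, 5 processing genes, 8 Trk adaptors, 5 p75 adaptors and 5 Bdnf regulators. With a null of no difference 1325 genes (9.94%) were higher than Ntrk2 and 11332 (85%) lower, and 13 of 15 pairs were called. Of the 14 Trk phosphatase and trafficking genes, 11 were then lower and 3 higher. Of the 15 p75 adaptors, 9 were lower and 5 higher. Rescaled to TPM, the means were 86.6 for Ntrk2, 47.83 for Sort1, 22.32 for Ntrk3, 17.94 for Bdnf and 11.9 for Sorcs2, because the deposited FPKM sum to 743038, 820068 and 637844 in libraries 1, 2 and 3. Leaving out 1 library, the 4 members lower than Ntrk2 and the 6 pairs kept their counts. The difference of Grb2 from Ntrk2 then ran between -0.004 and 0.246 and that of Usf2 between -0.065 and 0.069, neither called with any library left out. Depth limits Ngfr and Ntf5, which rest on at most 15 fragments.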

Other observations

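The marker lists describe which cells the whole tissue held. In the excitatory neuron list Camk2a was highest at 820 FPKM. Among interneuron markers Sst was at 712 FPKM and Vip at 14.1 FPKM, and among astrocyte markers Aldoc was at 592 FPKM and Aldh1l1 at 26.9 FPKM. Oligodendrocyte precursor markers lay between 96.6 FPKM for Olig1 and 2.97 FPKM for Cspg4, and mural and vascular markers between 64.9 FPKM for Rgs5 and 3.53 FPKM for Pdgfrb. Meningeal markers lay between 53.7 FPKM for Igf2 and 3.78 FPKM for Lum. Ttr, the choroid plexus transthyretin gene, was at 392, 1071 and 1296 FPKM in libraries 1, 2 and 3, and Clic6 at 0.92, 1.70 and 1.82 FPKM. Of the peripheral glia markers Sox10, which oligodendrocytes also express, was highest at 14.9 FPKM. Slc5a7 was the highest basal forebrain cholinergic marker, at 0.297 FPKM.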
